A study of Mus musculus with 9 samples.

Results

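The response described here is that of 1 short hairpin RNA, shMed1 #4, set against the non-targeting control hairpin (NTC) in D2A1-d, a mouse breast carcinoma line. It rests on 6 of the 9 samples of the series: the 3 labelled shMed1 #4 and the 3 labelled NTC, chosen by their titles. The remaining 3 carry a second hairpin against Med1, shMed1 #2. They entered the filter on low counts, the scaling, the shared estimate of the spread and the comparisons that name them. They also entered each gene's mean abundance, which sets the abundance bins and the abundance minimums used below. The labels give the NTC samples as wild type and the shMed1 #4 samples as Med1 knockdown, in cells transduced with the respective hairpin and grown in medium with 10% serum at 37 °C and 5% CO2. The series title concerns the Mediator subunit MED4 and dormancy of metastatic breast cancer cells, and this experiment compares cells that carry a Med1 hairpin with cells that carry the control hairpin. The titles number the samples of a group as biological replicates, but nothing says whether a group is a clone or a pool, or whether its samples were transduced or cultured apart, so the p-values speak of how these samples scatter, possibly for technical reasons alone.

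Mediator is a multi-subunit complex that carries signals from DNA-bound transcription factors to RNA polymerase II at promoters. MED1 sits at its edge and was isolated among the proteins that bind the thyroid hormone and vitamin D receptors. In mammary tissue it is known as a coactivator of the estrogen receptor and of GATA factors, and it gathers at enhancers where many factors bind together. A hairpin RNA lowers the transcript it matches, and it can also lower transcripts that match its seed by chance, so the response to a single hairpin can hold both kinds of change.

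Each NTC library held 8123918 to 8504098 counts and each shMed1 #4 library 8347798 to 8649028, and 13611 genes had enough counts to be tested. Med1 (ENSMUSG00000018160.15, chromosome 11, 98152154 to 98193293, minus strand, GRCm38) was counted at 85.6, 87.5 and 79.8 CPM in NTC (CPM, the gene's share of a library's scaled counts) and at 25.02, 26.6 and 25.5 CPM with shMed1 #4, -1.71 on the log2 scale (SE 0.0739, adjusted p = 6.39e-34). The cells carried few transcripts that define mammary epithelium: 7 of 14 luminal markers, among them Epcam, Pgr and Elf5, were at 0 in all 6 libraries, and the 14 summed to 59.7 to 61.6 CPM in NTC and 43.5 to 53.5 CPM with shMed1 #4. Of the luminal markers tested, Krt8 and Krt18 were called lower (-0.89 and -0.21). The 8 basal markers summed to 232 to 245 CPM in NTC and 289 to 346 CPM with shMed1 #4, nearly all of it Acta2, which was called higher (0.46) and is on the fibroblast list too. The 11 fibroblast markers summed to 408 to 427 CPM in NTC and 415 to 462 CPM with shMed1 #4, and of these Pdgfra and Pdgfrb were called lower (-0.55 and -0.70). The 9 endothelial markers summed to 0.588 to 0.862 CPM in NTC and 0.466 to 1.44 CPM with shMed1 #4. The 15 leukocyte markers summed to 75.9 to 90.1 CPM in NTC and 66.7 to 74.3 CPM with shMed1 #4, nearly all of it Cd14, called lower (-0.19), and Csf1r, with 7 of them, Cd3e, Itgam and Tyrobp included, at 0. What part these shifts have in the results was not tested.

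With shMed1 #4, 1911 genes were higher and 1925 lower than in NTC (quasi-likelihood test of edgeR, adjusted p below 0.05), 28.2% of all genes tested (14% higher and 14.1% lower). The numbers in each direction were alike and the sizes were not. The median log2 fold change was 0.28 among the called higher genes and -0.36 among the called lower ones. At least 2-fold changes were called for 52 higher genes (0.382% of those tested) and 232 lower genes (1.7%), at least 3-fold changes for 8 and 92, and at least 8-fold changes for 0 and 13. Of the 1911 higher genes, 1789 had all 3 shMed1 #4 libraries above all 3 NTC libraries. Of the 1925 lower genes, 1800 had all 3 below. Among genes that were not called, 839 lay fully above and 867 fully below, so that 19.3% of all genes tested lay above and 19.6% below without overlap. No gene went from at most 3 counts in every library of one group to at least 20 in every library of the other.

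Among called genes that averaged 1 log2 CPM or more, the lowest was Perp. Perp (ENSMUSG00000019851.8, chromosome 10, 18845020 to 18857073, plus strand), which encodes a membrane protein of desmosomes, stood at 22.5, 19.3 and 23.6 CPM in the NTC libraries and 1.75, 1.93 and 1.85 CPM in the shMed1 #4 libraries. It fell by 3.56 (SE 0.182, adjusted p = 2.99e-29), the lowest value of the 15. Cxcl12, the chemokine that attracts cells carrying CXCR4, had 11.6, 12.2 and 10.3 CPM in the NTC libraries and 1.05, 0.722 and 1.51 CPM in the shMed1 #4 libraries, with a log2 fold change of -3.36 (SE 0.24). The groups did not overlap for either gene, and the NTC libraries lay within a narrow range. The RNA came from whole cultures, in which fewer cells with a transcript and less transcript per cell cannot be told apart.

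Enpp2, another of the 15, which encodes the lysophosphatidic acid-producing enzyme autotaxin, stood at 53.1, 52.2 and 59.4 CPM in the NTC libraries and 10.6, 9.51 and 9.04 CPM in the shMed1 #4 libraries (-2.5, SE 0.104, adjusted p = 7.3e-35). Saa3, an acute-phase apolipoprotein gene, had 13.7, 18.1 and 18.2 CPM in the NTC libraries and 1.75, 2.17 and 1.51 CPM in the shMed1 #4 libraries (-3.2). Ccn4, a matricellular gene first described as a Wnt target, went from 6.54 to 1.02 CPM on average (-2.67), and the ferritin receptor gene Scara5 from 17.1 to 3.63 (-2.22). The protocadherin gene Pcdh19 fell by 3.12 and the putative RNA helicase gene Dhx40 by 2.23. The placental hormone genes Prl2c2 and Prl2c3, which encode proliferins, fell by 2.56 and 2.12. Prl2c2 was the more abundant of the pair, with 53.9, 49.3 and 52.3 CPM in the NTC libraries and 9.89, 6.98 and 9.51 CPM in the shMed1 #4 libraries. Proliferin genes are near copies, and how their shared reads were counted is not stated.

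The interferon-induced genes Oasl2 (-2.71), Ifit1 (-2.53), Gbp3 (-2.38) and Rtp4 (-2.29) were also among the 15. Ifit1, whose protein binds foreign RNA ends, had 50, 54 and 103 counts in the NTC libraries and 15, 13 and 8 in the shMed1 #4 libraries. Xist, the noncoding RNA that coats an inactive X chromosome, stood at 167, 159 and 137 CPM in the NTC libraries and 15.6, 20.9 and 13.9 CPM in the shMed1 #4 libraries (-3.2, SE 0.161, adjusted p = 1.16e-06). Every library of one group lay below every library of the other for all 15 genes. Some genes lay lower still but averaged under 1 log2 CPM over the 9 libraries. Gxylt2, a glycosyltransferase gene named here after its values were seen, had 62, 109 and 89 counts in NTC and 6, 4 and 6 with shMed1 #4 (-4.01). Reads of Xist cannot be separated from those of its antisense partner Tsix without the strand setting.

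**Figure D1:**
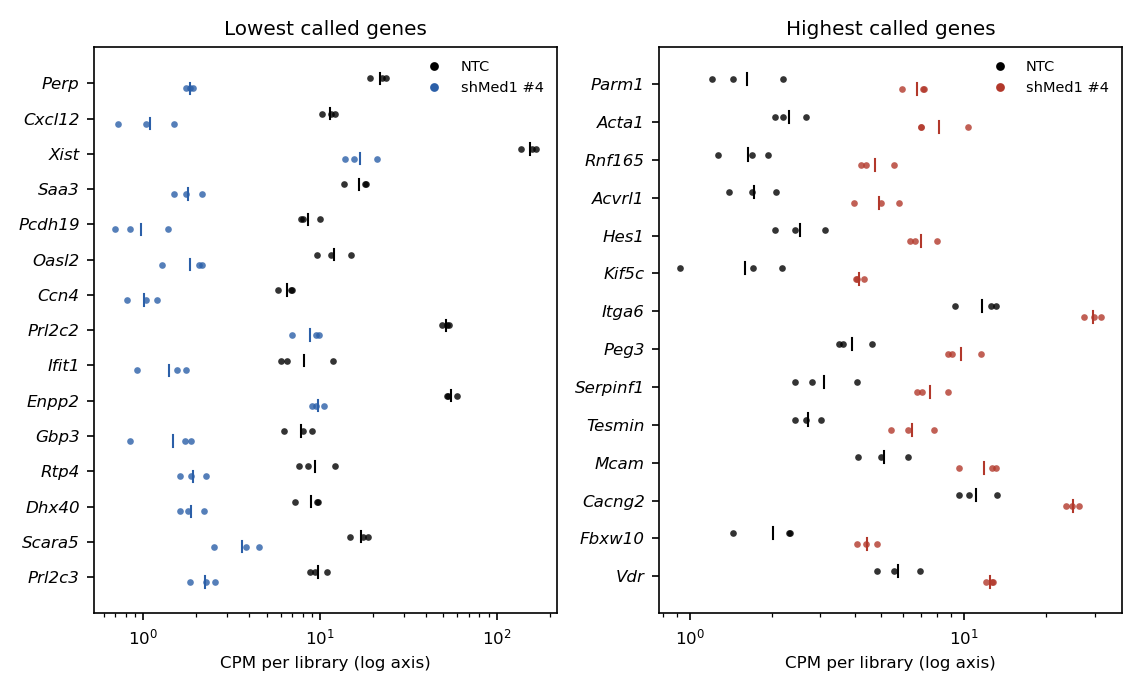
CPM in each of the 3 NTC libraries (black) and the 3 shMed1 #4 libraries (colour) for the lowest and the highest called genes averaging 1 log2 CPM or more, on a log axis, with the group mean as a bar. The 2 groups are separate for every gene drawn, and Xist at 154 CPM is the most abundant of them in NTC.

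By the same abundance minimum, the highest called gene was Parm1. The gene (ENSMUSG00000034981.9, chromosome 5, 91517615 to 91626894, plus strand), which encodes a mucin-like membrane protein, stood at 1.21, 1.45 and 2.2 CPM in the NTC libraries and 5.93, 7.1 and 7.19 CPM in the shMed1 #4 libraries and rose by 2.04 (SE 0.245, adjusted p = 8.32e-11). It was counted 10, 12 and 19 times in the NTC libraries and 51, 59 and 62 times in the shMed1 #4 libraries. The skeletal muscle actin gene Acta1 had 2.67, 2.05 and 2.2 CPM in the NTC libraries and 10.4, 6.98 and 6.96 CPM in the shMed1 #4 libraries (1.81, SE 0.216). These were the highest values among genes that pass the abundance minimum, and the groups were well apart in both.

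Acvrl1, which encodes an endothelial type I receptor for bone morphogenetic proteins, rose by 1.52, from 1.71 to 4.92 CPM. Vdr, the vitamin D receptor, rose by 1.11 (SE 0.156) and stood at 5.58, 4.82 and 6.95 CPM in the NTC libraries and 12.1, 12.8 and 12.6 CPM in the shMed1 #4 libraries. Its shMed1 #4 libraries lay close together and clear of the NTC libraries. Itga6, the laminin-binding integrin alpha 6, was the most abundant gene of the 15 with shMed1 #4, with 13.1, 12.5 and 9.26 CPM in the NTC libraries and 31.7, 29.97 and 27.4 CPM in the shMed1 #4 libraries (1.35). Mcam, an adhesion molecule of the immunoglobulin family, rose by 1.2. Cacng2, which encodes the AMPA receptor auxiliary subunit stargazin, stood at 9.58, 13.3 and 10.4 CPM in the NTC libraries and 23.6, 26.4 and 24.8 CPM in the shMed1 #4 libraries (1.17, SE 0.119). Others were Hes1, a transcriptional repressor downstream of Notch (1.46), the neuronal kinesin gene Kif5c (1.38), the imprinted gene Peg3 (1.31), Serpinf1, which encodes pigment epithelium-derived factor (1.27), the ubiquitin ligase gene Rnf165 (1.53), the F-box gene Fbxw10 (1.12) and Tesmin (1.26).

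Promoter sequence was read from RefSeq's GRCm38.p6 table, in which 7548 of the 13611 genes tested have a single entry of 250 bases before to 50 bases after the start. The 150 bases directly before the RefSeq start are printed 5′ to 3′ on the gene's strand for 6 genes: the 2 highest genes, Cxcl12 as the lowest with an entry, Ifit1 as the interferon-induced gene with the most matches to a motif searched, and the pair H2-Q6 and H2-Q7, which were among the genes that differed most between the hairpins. For Parm1 and Ifit1 this start lies inside the gene as GENCODE places it, and for Acta1 outside it. Capitals mark matches, on either strand, to any of 4 motifs. The TATA box was searched as TATAAA. The letters searched for a GC box were GGGCGG, and for the interferon response element core GAAANNGAA. The pentamer CCAAT was searched as well. The stretches are chr5:91517550-91517699 (plus strand), chr8:123894776-123894925 (minus), chr6:117168385-117168534 (plus), chr19:34640739-34640888 (plus), chr17:35424700-35424849 (plus) and chr17:35439005-35439154 (plus).
Parm1: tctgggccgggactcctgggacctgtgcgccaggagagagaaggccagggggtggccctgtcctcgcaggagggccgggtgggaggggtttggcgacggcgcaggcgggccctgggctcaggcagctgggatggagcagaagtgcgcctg
Acta1: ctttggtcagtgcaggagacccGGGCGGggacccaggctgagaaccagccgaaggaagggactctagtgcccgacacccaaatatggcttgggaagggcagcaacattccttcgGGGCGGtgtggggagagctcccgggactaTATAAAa
Cxcl12: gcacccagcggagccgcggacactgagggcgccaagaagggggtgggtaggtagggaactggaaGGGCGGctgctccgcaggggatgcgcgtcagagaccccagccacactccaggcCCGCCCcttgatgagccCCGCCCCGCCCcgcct
Ifit1: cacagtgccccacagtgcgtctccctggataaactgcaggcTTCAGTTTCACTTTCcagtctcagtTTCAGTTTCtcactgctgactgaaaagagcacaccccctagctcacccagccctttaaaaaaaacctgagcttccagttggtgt
H2-Q6: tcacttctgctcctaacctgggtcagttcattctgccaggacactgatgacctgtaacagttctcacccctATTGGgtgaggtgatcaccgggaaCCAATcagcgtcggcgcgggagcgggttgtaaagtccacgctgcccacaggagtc
H2-Q7: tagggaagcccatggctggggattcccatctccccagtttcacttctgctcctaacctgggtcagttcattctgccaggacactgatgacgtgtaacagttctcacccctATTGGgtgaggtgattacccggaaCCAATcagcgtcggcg
Parm1 has no match to these 4 motifs here, and Acta1 has a TATA box beginning 7 bases and GC boxes beginning 128 and 36 bases before the start. Cxcl12 has 4 GC boxes, of which the last 2 overlap. Ifit1 has 3 matches to the interferon core, beginning 109, 103 and 84 bases before the start, and the first 2 overlap. H2-Q6 and H2-Q7 each have 2 CCAAT boxes, and over the 111 bases that align without a gap 108 are the same (97.3%). Matches are a description of the letters, not of binding.

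Over all genes with 1 promoter entry, 9 motifs were searched in the 300-base windows, and the shares are given as a description with no test. TATAAA was in 6.64% of all 7548 windows, in 14.5% of the 283 genes called lower at least 1.5-fold and in 15.2% of the 92 called higher at least 1.5-fold. CCGGAAG, the core of ETS sites, went the other way, with 20.2%, 9.19% and 8.7%. GAAANNGAA was in 6.84% of all windows, 10.2% of those lower and 5.43% of those higher. CCAAT was in 40%, 47% and 27.2%, and GGGCGG in 67.1%, 57.2% and 60.9%. CACGTG, the E-box, was in 10.6%, 7.07% and 13%, and TGACGTCA, the cyclic AMP response element, in 3.47%, 2.47% and 6.52%. The last 2, TGATGCAAT (an ATF4 site) and GGACTTTCC (an NF-kB site), were in 0.172% and 0.464% of all windows. Motif shares also varied with abundance. With genes ranked by abundance into 5 bins of equal size, in the least abundant 2 bins TATAAA was in 7.81% of all windows and 12.7% of the lower ones, and GGGCGG in 57.2% and 54.8%. In the other 3 bins TATAAA was in 6.06% of all and 21.8% of the 55 lower windows. Over all 22862 single windows of the table, tested genes or not, TATAAA was in 14.8%, GAAANNGAA in 8.62%, CCAAT in 38.2%, GGGCGG in 35.2%, CCGGAAG in 9.12%, CACGTG in 7.12%, TGACGTCA in 1.85%, TGATGCAAT in 0.219% and GGACTTTCC in 0.337%.

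Measured by the gain or loss in CPM rather than by fold, the response lay in other genes. Mitochondrially encoded mRNAs were 5 of the 10 largest gains: mt-Nd1, mt-Co1, mt-Cytb, mt-Nd5 and mt-Nd6, which encode subunits of respiratory complexes. The most gained was mt-Nd1, at 5604, 5305 and 5539 CPM in the NTC libraries and 7726, 7196 and 6898 CPM in the shMed1 #4 libraries (0.41, SE 0.0374). Transcripts of the mitochondrial genome made up 3.93, 3.68 and 3.76% of the counts in the NTC libraries, 4.55, 4.46 and 4.29% with shMed1 #4 and 4.05, 4.05 and 3.95% with shMed1 #2. The shMed1 #4 libraries were thus the highest of the 9. Of the 22 mitochondrial genes tested, 14 were called higher and 0 lower, with a median of 0.28 on the log2 scale against 0.00086 for all genes tested. By kind, 8 of 12 mRNAs and 5 of 8 tRNAs were called higher. Reads of mitochondrial genes can also match their nuclear copies.

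The other large gains were cytoskeleton and adhesion genes. Cytoplasmic beta-actin, Actb, stood at 4427, 4622 and 4488 CPM in the NTC libraries and 5733, 5410.4 and 5699.6 CPM in the shMed1 #4 libraries (0.32). The actin crosslinker gene Flna rose by 0.35, the intermediate filament gene Vim by 0.38, and Dstn, which encodes the actin-severing protein destrin, by 0.61. Itgb1, the beta 1 integrin chain that pairs with the alpha 6 chain among others, had 868, 865 and 834 CPM in the NTC libraries and 1366, 1371 and 1359 CPM in the shMed1 #4 libraries (0.67, SE 0.0377, adjusted p = 7.67e-27). Losses in CPM were largest for Calr, an endoplasmic reticulum chaperone gene, with 4424, 4292 and 4398 CPM in the NTC libraries and 3554, 3499.7 and 3529 CPM in the shMed1 #4 libraries (-0.31). Pdia6, Hspa5 and Pdia3, which act in protein folding in the same compartment, fell by 0.60, 0.26 and 0.28. The secreted proteins osteopontin (Spp1, -1.11), ceruloplasmin (Cp, -1.11) and insulin-like growth factor binding protein 4 (Igfbp4, -0.56) were among them, as were the desaturase gene Scd2 (-0.92), the translation elongation factor gene Eef2 (-0.24) and Tpt1, the translationally controlled tumour protein (-0.40). Cp, a copper-binding ferroxidase, stood at 703, 663 and 684 CPM in the NTC libraries and 308, 330.5 and 310.3 CPM in the shMed1 #4 libraries. No library of one group reached the range of the other in any of these 20 genes.

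The direction of the response moved with transcript abundance. Genes were put in 5 bins of equal size by mean level over the 9 libraries. The least abundant (bin 1, mean log2 CPM up to 2.33) had 3.08% of its genes called higher and 10.1% lower, a difference of -7.05 percentage points. In bin 2 the shares were 6.87% and 12.8%, in bin 3 11.5% and 15.7%, and in bin 4 18.7% and 15.1%. In the most abundant, bin 5 (from 6.5), 30.1% were higher and 16.9% lower, a difference of 13.1 points. The share called higher rose from bin to bin, and the share called lower rose less. The median log2 fold change of all genes went from -0.059 in bin 1 to 0.041 in bin 5. Bin 5 took 69.9% of the counts in NTC and 71.8% with shMed1 #4, and bin 1 0.699% and 0.632%.

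**Figure D2:**
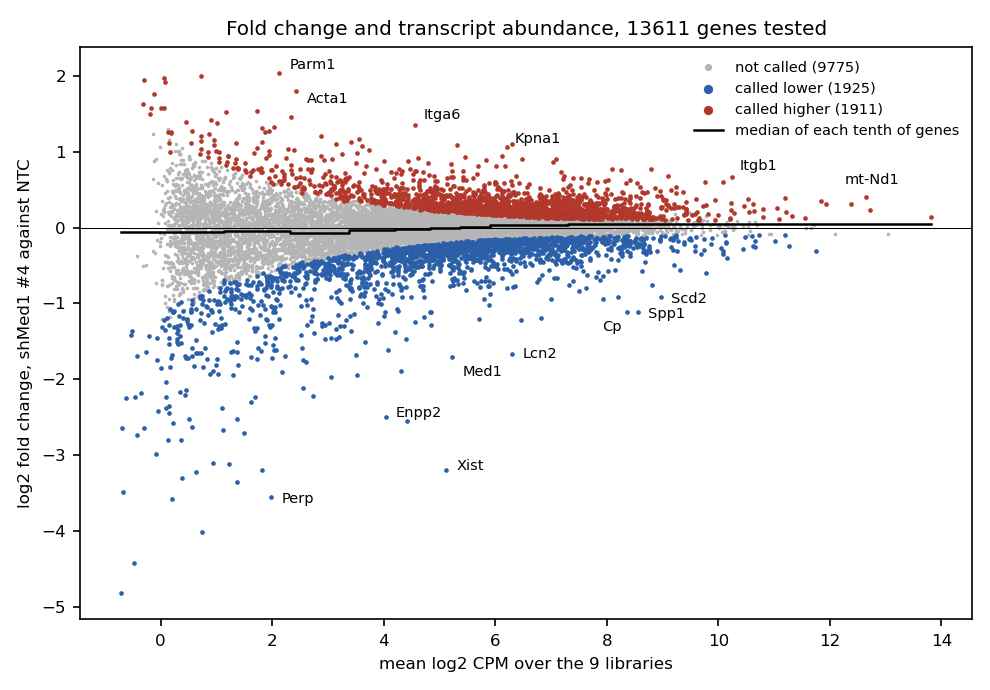
Log2 fold change of shMed1 #4 against NTC (y axis) by mean log2 CPM over the 9 libraries (x axis) for each gene tested, coloured by its call, with the median of each of 10 bins of genes by abundance as a black line. Folds are widest at low abundance, where lower genes reach further from 0 than higher ones, and the median line moves from below to above 0.

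Large folds lay in the bins of low mean level. That mean takes in all 9 libraries, those with either Med1 hairpin included, so a gene's own fall or rise moves its bin. Perp, at 21.8 CPM on average in NTC, had a mean of 1.98 log2 CPM and so lay in bin 1. Bins from the NTC libraries alone were not made, and the part of this in the trend was not tested. Of the 232 genes lower at least 2-fold, 172 were in bin 1 and 3 in bin 5, and of the 52 higher ones 39 and 0. The median fold of a called gene followed, from 0.98 and -1.11 in bin 1 to 0.21 and -0.22 in bin 5. So did the median standard error of a gene's log2 fold change, 0.312 against 0.0487, so a scarce gene needed a large fold to be called. With library size in place of TMM scaling bin 5 had a difference of 5.14 points, and with upper quartile scaling 7.97. Of genes averaging 4 log2 CPM or more, 19.6% were higher and 15.8% lower, and 17.6% and 16.8% without chromosomes 2 and 10. The trend runs with the precision of the fold changes, with gene class and with these chromosomes, and their parts in it were not tested.

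**Figure D3:**
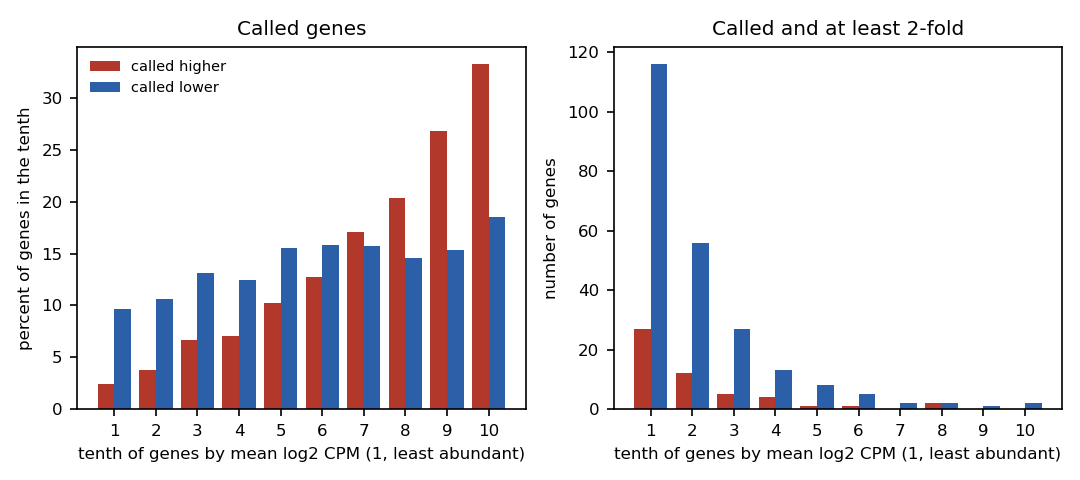
Percent of genes called higher (red) and lower (blue) in each of 10 bins of genes by mean log2 CPM (left), and the number of them that changed at least 2-fold (right). The share called higher goes from 2.42% to 33.3%, and 116 of the lower genes past 2-fold are in the least abundant of the 10 bins.

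The response was also read over gene lists. The 61 lists held 1999 genes tested, and each is given by its counts and the median log2 fold change of its tested members, to be read against 14% higher, 14.1% lower and a median of 0.00086 for all genes. More members were higher than lower in 26 lists, more were lower in 29, and 6 were even. Medians ran from -0.18 to 0.11.

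Genes that make pyrimidines and deoxynucleotides were mostly higher: 11 higher and 1 lower of 21 tested (median 0.11). Ctps, which makes CTP from UTP, stood at 210.1, 210.3 and 214 CPM in the NTC libraries and 294, 299 and 273 CPM in the shMed1 #4 libraries and rose by 0.45 (SE 0.0437, adjusted p = 3e-14). Umps, the last enzyme of UMP synthesis, rose by 0.32, the ribonucleotide reductase genes Rrm2 and Rrm1 by 0.25 and 0.11, thymidylate synthase Tyms by 0.27 and the salvage kinase genes Tk1 and Dck by 0.21 and 0.21. The member called lower was Cmpk1 (-0.17), which lost its call in DESeq2 and without NTC replicate 3 or shMed1 #4 replicate 3. Purine synthesis and salvage did not show the same count, with 3 higher and 4 lower of 24 tested (median 0.0051). There Ampd3, an AMP deaminase gene, fell by 0.71.

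Nuclear pore genes had 10 higher and 1 lower of 26 tested (median 0.10). Nup37 and Aaas rose by 0.29 and 0.29, Nup107 by 0.28 and the basket protein gene Tpr by 0.21. The member called lower, Nup98 (-0.13), lost its call in 6 alternatives. Among import and export receptors Kpna1, which encodes an importin alpha that carries cargo into the nucleus, changed by far the most. It stood at 41.8, 46.3 and 42.8 CPM in the NTC libraries and 89.7, 95.2 and 89.4 CPM in the shMed1 #4 libraries (1.07, SE 0.0636, adjusted p = 3.16e-25), while Kpna2 rose by 0.38 and Xpo7 fell by 0.22. Core spliceosome and SR protein genes had 13 higher and 2 lower of 46 tested (median 0.084), from Lsm5 (0.52) and Snrpd3 (0.32) to the SF3b subunits Sf3b2 (-0.19) and Sf3b3 (-0.13), with 4 lower without shMed1 #4 replicate 3. The hnRNP genes, which bind nascent RNA, had 8 higher and 4 lower of 26 tested (median 0.047), led by Hnrnpab (0.31) and, on the lower side, Hnrnpa0 (-0.35). Their higher count was 5 with library size alone, without NTC replicate 1 or without shMed1 #4 replicate 2, and 4 without NTC replicate 3. Members of the pore, spliceosome and hnRNP lists had median abundances of 7.02, 6.93 and 8.47 log2 CPM, in abundance bin 5, where 30.1% of all genes were higher.

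Microtubule genes moved in both directions. Tubulins and microtubule-associated proteins had 14 higher and 6 lower of 31 tested (median 0.11). The beta tubulin gene Tubb6 stood at 238, 256 and 246 CPM in the NTC libraries and 399.7, 378 and 371 CPM in the shMed1 #4 libraries and rose by 0.63 (SE 0.0427, adjusted p = 3.52e-22), and Tubb4b and Tuba4a rose by 0.46 and 0.43. Stmn1, which binds free tubulin, rose by 0.36, and Tubg1, the gamma tubulin that seeds microtubules, by 0.36. Genes best known from neurons were among the lower ones: Map1a (-1.07), Tubb3 (-1.04) and Map2 (-0.63). Motor genes had 10 higher and 3 lower of 33 tested (median 0.068). The kinesin heavy chain Kif5b rose by 0.30, the light chain Klc1 by 0.38 and the dynein light chain genes Dynlrb1 and Dynll1 by 0.31 and 0.26, while Kif26b fell by 0.95. With library size alone or upper quartile scaling 6 motor genes were lower.

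Cohesin and condensin genes had 6 higher and 0 lower of 24 tested (median 0.044), namely the condensin subunits Ncaph (0.35), Ncapg (0.24), Ncapg2 (0.21), Ncapd3 (0.21) and Smc4 (0.12), and the cohesin subunit Smc1a (0.25). The list's median abundance of 7.39 log2 CPM lies in abundance bin 5, where 30.1% of genes were higher. Genes of homologous recombination and Fanconi repair had 8 higher and 2 lower of 38 tested (median 0.06), with 5 higher in DESeq2, without NTC replicate 3 or without shMed1 #4 replicate 3. Excision and mismatch repair genes had 2 higher and 1 lower of 34 tested (median -0.0081), a share called of 8.82% against 28.2% for all genes. Polycomb genes had 7 higher and 3 lower of 32 tested (median 0.07), with 1 lower without NTC replicate 1. The recombination and Polycomb lists had median abundances of 5.42 and 5.89 log2 CPM, in abundance bin 4, where 18.7% of genes were higher. Ezh2 and Ezh1, the alternative methyltransferases of Polycomb complex PRC2, went opposite ways (0.29 and -0.31), though Ezh1 lost its call without NTC replicate 1 (adjusted p = 0.0521).

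Genes that charge transfer RNAs were mostly lower. Of 20 cytosolic aminoacyl-tRNA synthetase genes, 13 were called lower and 3 higher (median -0.14), 80% called in all, the highest share of the 61 lists. Qars, the glutaminyl enzyme, stood at 121, 116 and 123 CPM in the NTC libraries and 94.5, 79.9 and 90.9 CPM in the shMed1 #4 libraries and fell by 0.44 (SE 0.0548, adjusted p = 2.49e-10). Sars and Wars fell by 0.33 and 0.32, and the other 10 lower members fell by 0.13 to 0.18. The 3 higher members were Farsb (0.21), Rars (0.15) and Hars (0.13). Across the alternatives 10 to 13 members were lower and 2 to 3 higher. The list's median abundance of 7.86 log2 CPM lies in abundance bin 5, where 16.9% of genes were lower.

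Of 19 amino acid transporter genes, 10 were lower and 2 higher (median -0.14). Slc7a11, the cystine transporter, stood at 70.8, 76.4 and 74.3 CPM in the NTC libraries and 40.5, 36.9 and 37.4 CPM in the shMed1 #4 libraries (-0.95, SE 0.0691). The arginine carrier gene Slc7a2 was the lowest (-1.24). Slc43a2, a carrier of large neutral amino acids, fell by 0.85, the glycine carrier Slc6a9 by 0.79 and Slc7a5 and its partner chain Slc3a2 by 0.24 and 0.11. Slc7a6 (0.29) and the taurine carrier Slc6a6 (0.17) were higher. Folate, serine and methionine genes had 4 higher and 7 lower of 23 tested (median -0.049). Cth, which makes cysteine from cystathionine, fell by 0.92, from 36.8 to 19.4 CPM, and the mitochondrial folate enzyme gene Aldh1l2 by 0.52. Glucose, monocarboxylate and nucleoside carriers had 0 higher and 4 lower of 19 tested (median -0.17). ABC transporter genes had 1 higher and 9 lower of 23 tested (median -0.18). Abca1 and Abcg1, which export cholesterol, fell by 2.24 and 1.82, Abca1 from 16, 18 and 14 counts in the NTC libraries to 1, 6 and 3 with shMed1 #4. The only ABC member called higher was Abce1 (0.17), which recycles ribosomes and is no transporter.

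The list of iron and heme genes had 1 higher and 9 lower of 32 tested (median -0.064). Lcn2, the siderophore-binding lipocalin, had 172, 188 and 199 CPM in the NTC libraries and 50.7, 61.5 and 63.8 CPM in the shMed1 #4 libraries and fell by 1.67 (SE 0.0602, adjusted p = 5.5e-33). The ferritin genes Ftl1 and Fth1 fell by 0.31 and 0.10, the heme oxygenase gene Hmox1 by 0.24 and the biliverdin reductase gene Blvrb by 0.58. Tfrc, the transferrin receptor, was the member called higher (0.17). Across the alternatives 6 (DESeq2) to 12 (library size alone) members were lower and 1 to 4 higher, with 4 higher without shMed1 #4 replicate 3 and 2 without NTC replicate 3 or shMed1 #4 replicate 1 or 2.

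Lower members also outnumbered higher ones along the secretory route and in autophagy. Genes of GPI anchor synthesis had 0 higher and 6 lower of 23 tested (median -0.063). Pigl, a deacetylase of the route, fell by 0.65 and Pigo by 0.49. DESeq2 called 2 lower, and 3 were lower without NTC replicate 1, NTC replicate 2 or shMed1 #4 replicate 2. Vesicle coat and transport genes had 2 higher and 9 lower of 45 tested (median -0.056), with 14 lower under library size alone, and with Tmed3 and the COPII coat gene Sec24d lowest (-0.46 and -0.46). N-glycan genes had 7 higher and 10 lower of 39 tested (median -0.029), from Alg12 (-0.73) and Alg5 (-0.60) to Man2a1 (0.49). Autophagy genes had 2 higher and 8 lower of 29 tested (median -0.10), with 4 lower in DESeq2 or without shMed1 #4 replicate 1 and 5 without NTC replicate 3. The selective autophagy receptor gene Sqstm1 fell by 0.56, from 352 to 239.8 CPM, and Nbr1 by 0.36, while Optn, a receptor of the same kind, rose by 0.53. Lysosomal genes were even, with 5 higher and 5 lower of 30 tested (median 0.019), and included the gene of the membrane protein LAMP2. Lamp2 stood at 160.5, 167 and 162 CPM in the NTC libraries and 86.2, 89.1 and 79.1 CPM in the shMed1 #4 libraries and fell by 0.95 (SE 0.0521, adjusted p = 2.81e-27).

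Zinc finger genes of the Zfp series, many of which encode repressors with a KRAB domain, were the largest list. Of 316 tested, 46 were lower and 8 higher (median -0.081), and their median abundance of 3.74 log2 CPM lies in abundance bin 2, where 12.8% of genes were lower and 6.87% higher. DESeq2 called 18 lower, and leaving out NTC replicate 1, NTC replicate 3 or shMed1 #4 replicate 1 left 27, 29 and 27. Without NTC replicate 3, 5 were higher. Zfp14 (-1.46) and Zfp882 (-1.28) were the lowest called, and Zfp280b (0.52) and Zfp703 (0.39) were the highest called. Zfp14 lost its call in DESeq2 and without shMed1 #4 replicate 2, and Zfp882 in DESeq2 and without NTC replicate 1 or shMed1 #4 replicate 3. Histone methyltransferase and demethylase genes had 3 higher and 9 lower of 43 tested (median -0.063). The demethylase genes Kdm2a and Kdm7a fell by 0.45 and 0.36, and the arginine methyltransferase gene Prmt5 rose by 0.36. Among acetylation genes the acetyltransferases Kat2b and Kat5 moved apart (0.58 and -0.76), in a list with 8 higher and 6 lower of 36 tested (median -0.017), of which 3 were lower in DESeq2 or without NTC replicate 1 or 3. In the remodeller list, which had 9 higher and 3 lower of 36 tested (median 0.048), the ATPase gene Smarca2 fell by 0.95 and Hells rose by 0.31. That list's median abundance of 6.88 log2 CPM lies in abundance bin 5, where 30.1% of genes were higher. With library size alone, in DESeq2 or without NTC replicate 3 the higher members numbered 5, and without NTC replicate 3 the lower ones numbered 7, which turns the balance of the list.

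**Figure D4:**
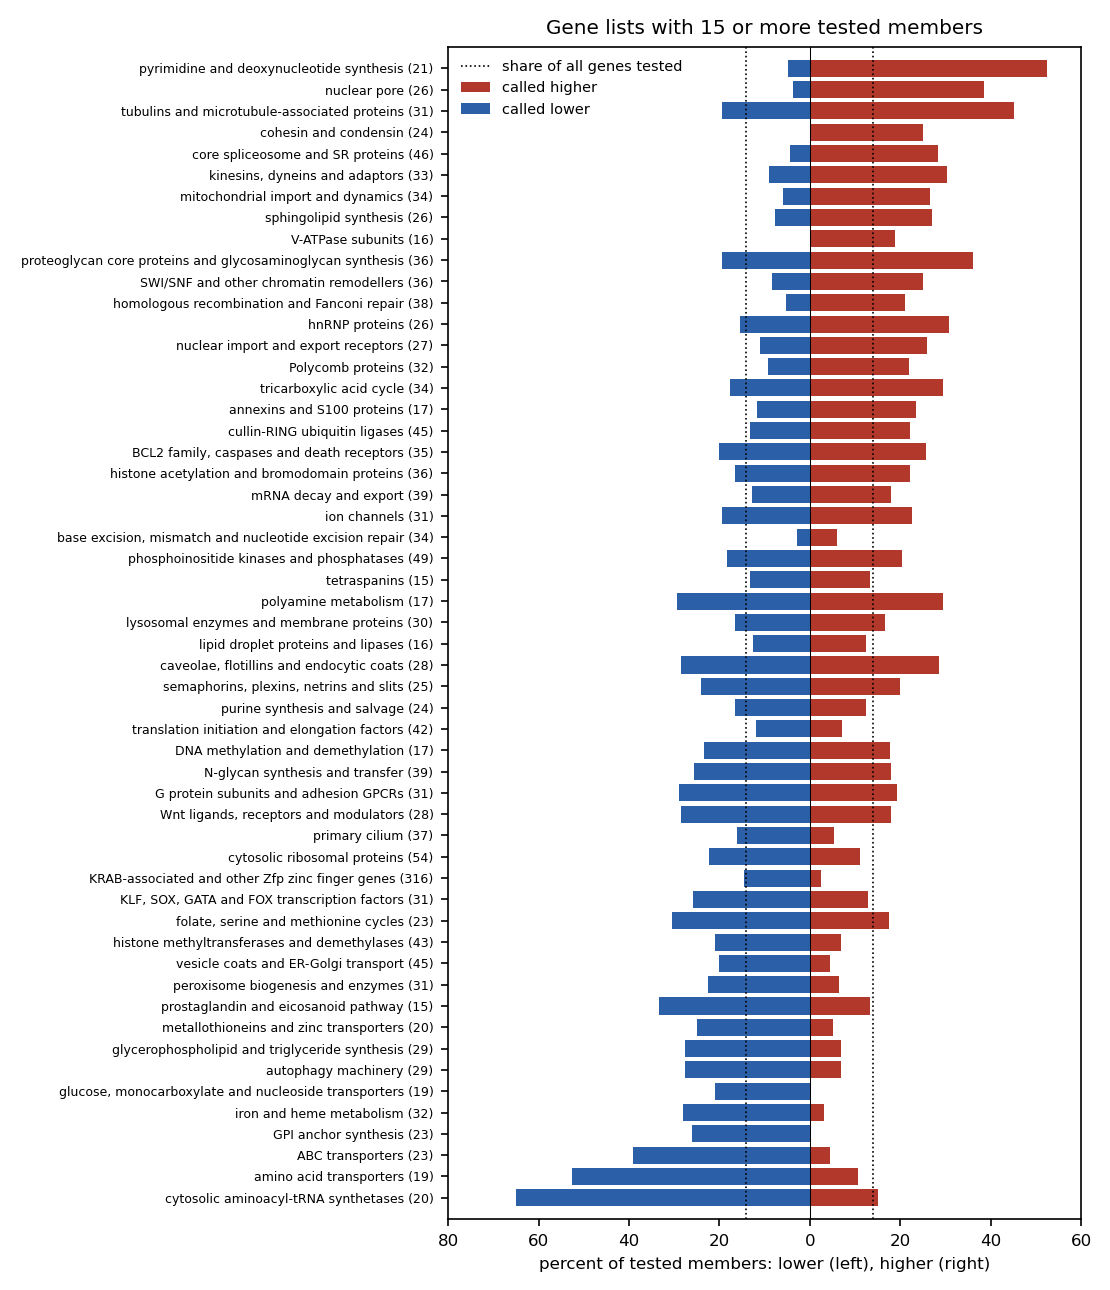
Percent of tested members called higher (red, right) and lower (blue, left) with shMed1 #4 in lists with at least 15 tested members (number in brackets), ordered by the difference. Dotted lines mark the shares of all genes tested, 14% and 14.1%. Pyrimidine, nuclear pore and tubulin lists stand at the higher end, and aminoacyl-tRNA synthetases and amino acid transporters at the lower end.

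Some lists held strong changes in single members without a common direction. The tricarboxylic acid cycle list had 10 higher and 6 lower of 34 tested (median 0.051). Its pyruvate carboxylase gene Pcx stood at 38.5, 40.6 and 42.6 CPM in the NTC libraries and 15.6, 16.8 and 21.1 CPM in the shMed1 #4 libraries (-1.18, SE 0.101), while Dlat, a subunit of pyruvate dehydrogenase, rose by 0.40 and the inhibiting kinase gene Pdk1 fell by 0.54. The phosphoinositide list had 10 higher and 9 lower of 49 tested (median -0.09). Its regulatory subunit genes Pik3r3 and Pik3r1 went opposite ways (0.82 and -0.76), and the phosphatase gene Inpp4b fell by 1.29. Of 31 KLF, SOX, GATA and FOX factors, 8 were lower and 4 higher, with 5 lower in DESeq2 and 2 higher without shMed1 #4 replicate 2. Foxo4, a forkhead factor that AKT keeps out of the nucleus, stood at 30.8, 26.6 and 27.9 CPM in the NTC libraries and 10.8, 10.5 and 11.5 CPM in the shMed1 #4 libraries (-1.38, SE 0.113, adjusted p = 8.4e-18). Klf4 fell by 0.60 and Klf5 rose by 0.34.

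Signalling lists were split as well. Wnt genes had 5 higher and 8 lower of 28 tested (median 0.041), 5 lower in DESeq2 and 3 higher without NTC replicate 3, with the ligand gene Wnt7b lowest, at 15.4, 14.9 and 20.8 CPM in the NTC libraries and 3.37, 6.38 and 5.22 CPM in the shMed1 #4 libraries (-1.78). The receptor genes Fzd6 and Fzd7 moved apart (-0.81 and 0.32). Semaphorin, netrin and slit genes had 5 higher and 6 lower of 25 tested (median -0.15): the membrane-bound semaphorin gene Sema4d fell by 1.28, the secreted guidance ligand gene Slit2 fell by 0.88, and the netrin receptor gene Unc5b rose by 0.44. Death and inflammasome genes had 9 higher and 7 lower of 35 tested (median 0.061), 4 higher in DESeq2 and 5 without NTC replicate 2, with the pore-forming gasdermin gene Gsdmd lowest (-1.55) and the TRAIL receptor gene Tnfrsf10b highest (0.40). The proteoglycan list had 13 higher and 7 lower of 36 tested (median 0.031), with 8 higher in DESeq2. The sulfatase gene Sulf2 rose by 0.75, and the glypican gene Gpc6 went from 22, 20 and 28 to 8, 1 and 4 counts (-2.41). Annexin A1, Anxa1, rose by 0.59, from 251 to 378 CPM, and S100a11 by 0.69 (adjusted p = 0.0121), while S100a16 fell by 1.68. The 54 ribosomal protein genes, among the most abundant of all, had 6 higher and 12 lower of 54 tested (median -0.018). Their higher count was 3 without NTC replicate 1, 2 without NTC replicate 2 or shMed1 #4 replicate 1, 13 without shMed1 #4 replicate 3, 10 with robust estimation off and 3 in DESeq2 or with library size or upper quartile scaling. Their lower count was 7 without NTC replicate 3.

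The hairpins were also compared with each other. Med1 itself was -1.71 with shMed1 #4 and -1.81 with shMed1 #2 against NTC. Its difference between the hairpins, 0.10, was not called (edgeR's quasi-likelihood test, adjusted p = 0.461). Between the hairpins 3540 genes were called, 26.0% of those tested. Genes called against NTC with shMed1 #4, called in the same direction against shMed1 #2, and not called with shMed1 #2 against NTC numbered 446: 210 higher (1.54%) and 236 lower (1.73%). DESeq2 gave 281. The 2 contrasts against NTC share the NTC libraries, while the contrast between the hairpins does not use them.

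Class I antigen presentation genes were among the lowest of these. H2-Q6, a nonclassical class I gene of the Qa-2 region whose promoter is printed above, stood at 12.6, 12.8 and 11.2 CPM in the NTC libraries and 2.79, 3.61 and 2.9 CPM in the shMed1 #4 libraries. Its log2 fold change was -1.97 (SE 0.178) with shMed1 #4 and 0.19 with shMed1 #2, and the difference between the hairpins was -2.16 (adjusted p = 4.5e-18). H2-Q7 had 41, 33 and 38 counts in the NTC libraries and 5, 21 and 8 with shMed1 #4, of which replicate 2 lay highest, and a difference between the hairpins of -2.0. H2-Q5 differed by -1.79 at 6, 6 and 7 counts in the shMed1 #4 libraries. Tap1, which encodes a chain of the peptide transporter that loads class I molecules, stood at 12.4, 10.8 and 14.7 CPM in the NTC libraries and 5.12, 4.69 and 3.83 CPM in the shMed1 #4 libraries, and its values were -1.47 with shMed1 #4, -0.20 with shMed1 #2 and -1.27 between them. Reads of the H2-Q genes, which are near copies of each other, may be shared between them. Prl2c3 (-1.85 between the hairpins) and Dennd2a, an exchange factor gene for RAB9 (-1.89), complete the 6 lowest.

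Acvrl1, Kif5c, Serpinf1, Tesmin and Mcam were among the highest of these genes. Acvrl1 stood at 2.06, 1.69 and 1.39 CPM in the NTC libraries and 5.004, 3.97 and 5.8 CPM in the shMed1 #4 libraries, and the difference between the hairpins was 2.4 (adjusted p = 5.97e-10). Kif5c and Serpinf1 differed by 2.21 and 1.82, Tesmin by 1.49 and Mcam by 0.94. With shMed1 #2 against NTC, Acvrl1 was -0.88, Kif5c -0.83, Serpinf1 -0.55, Tesmin -0.22 and Mcam 0.26. None of these was called, Acvrl1 narrowly (edgeR's quasi-likelihood test, adjusted p = 0.0523). In Peg3 and Cacng2 the hairpins were called in opposite directions against NTC. Peg3 was 1.31 with shMed1 #4 and -1.96 with shMed1 #2, and its shMed1 #4 libraries, at 8.73, 11.6 and 9.04 CPM, lay above the NTC libraries, at 3.52, 3.62 and 4.63 CPM. Cacng2 was 1.17 and -0.99. Among list members, Lamp2 (-0.95 and -0.11), Qars (-0.44 and 0.092), Slc7a11 (-0.95 and -0.26) and Foxo4 (-1.38 and -0.55) were lower with shMed1 #4 than with shMed1 #2, with differences of -0.84, -0.53, -0.68 and -0.83 (adjusted p = 7.43e-24, 2.14e-13, 4.73e-13 and 3.64e-08). Whether a gene called with only 1 hairpin answers to Med1 or to that hairpin alone cannot be told apart here.

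The chromosomes did not share the response evenly. On chromosome 2, 25.3% of the 1055 genes tested were called higher and 9.19% lower, and on chromosome 10 20.9% and 7.66%. On chromosome 4 the shares were 8.51% and 21.3%, on chromosome 7 8.13% and 18%, and on chromosome 12 8.64% and 18.9%. Restricted to genes averaging 4 log2 CPM or more, of which 19.6% were higher and 15.8% lower, chromosome 2 had 34.7% higher and 9.05% lower and a median log2 fold change of 0.099, and chromosome 10 had 29.6%, 7.77% and 0.095. Chromosome 18 followed with 28.3%, 11.1% and 0.066, and chromosome 1 with 23.7%, 10.3% and 0.050. On chromosomes 2 and 10 the shift was small for any one gene and spread along the chromosome: the median was above 0 in all 10 windows of 20 Mb on chromosome 2, from 0.051 to 0.26, and in all 7 on chromosome 10, from 0.058 to 0.14.

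Each library showed it. The median log2 ratio of chromosome 2 genes to the NTC mean was 0.11, 0.085 and 0.10 in the shMed1 #4 libraries and -0.0035, 0.00093 and 0.00078 in the NTC libraries, which set that mean. For chromosome 4 the ratios were -0.03, -0.04 and -0.05 and -0.0098, 0.0037 and 0.0019. With shMed1 #2, against the same NTC libraries, the medians of chromosomes 2, 10 and 4 were 0.12, 0.088 and -0.021. Without the genes of chromosomes 2 and 10, 1513 higher and 1780 lower genes remained, 12.7% and 14.9% of those tested. Among genes averaging 4 log2 CPM or more, 17.6% were then higher and 16.8% lower, against 19.6% and 15.8% with those chromosomes. The median log2 fold change of these abundant genes was 0.0066 without the 2 chromosomes and 0.018 with them. DNA copy number was not analysed here, and its part in the result was not tested.

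**Figure D5:**
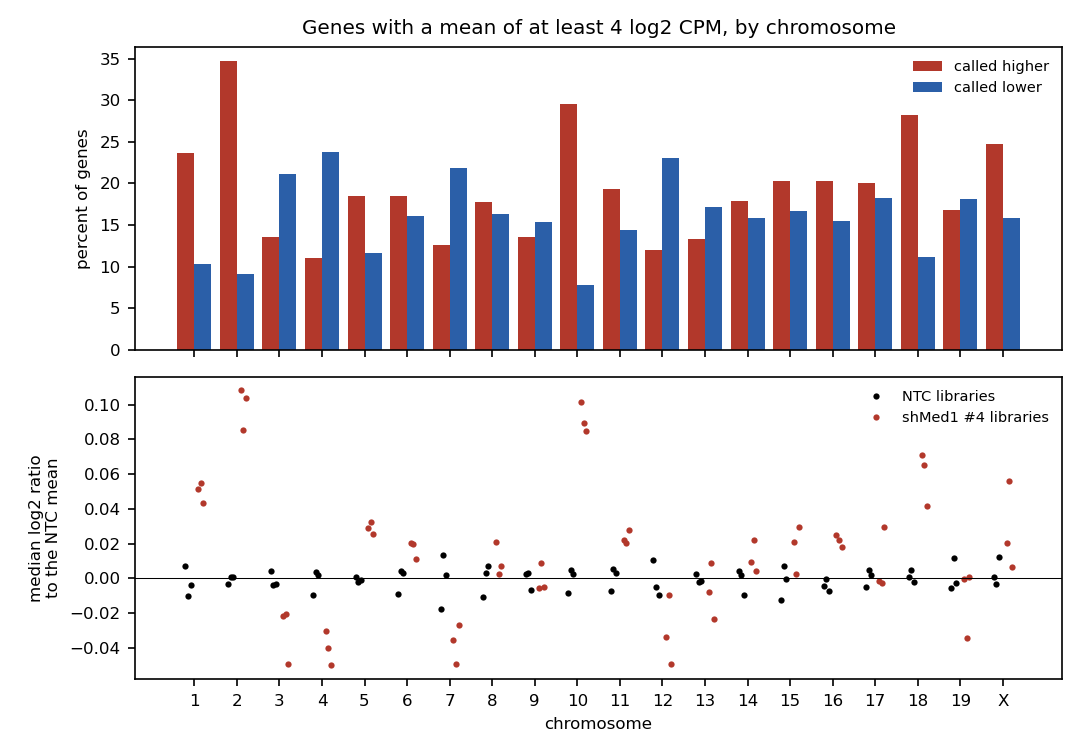
Top, percent of genes averaging 4 log2 CPM or more that were called higher (red) or lower (blue) on each chromosome; bottom, the median log2 ratio of those genes to the NTC mean in each NTC library (black) and each shMed1 #4 library (red). The 3 shMed1 #4 libraries lie above all NTC libraries on chromosomes 1, 2, 5, 6, 10, 11, 14, 16 and 18, and highest on 2 and 10. They lie below all NTC libraries on chromosomes 3, 4 and 7.

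Gene class and base composition moved with the calls too. Of 463 processed pseudogenes tested, 50 were higher and 6 lower (10.8% and 1.3%), although their median abundance of 1.36 log2 CPM lies in abundance bin 1, where lower calls prevailed. Their reads can come from the parent genes. Long intergenic noncoding RNAs had 10 higher and 31 lower of 266, and protein-coding genes 1765 and 1775 of 11197. From the lowest to the highest of 5 bins of GC content the share called higher went from 15.4% to 10.8% and the share called lower from 11.5% to 17.6%. Within abundance bin 5 the same ends had 32.2% and 24.3% higher, and 13.9% and 19.2% lower. In abundance bin 1 the share called lower was 4.06% among the shortest genes and 23.5% among the longest by exon length, and the share called higher 3.07% and 3.29%. The parts of base composition and length in the calls were not tested.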

How the data were processed

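RNA of 9 samples, 3 per group, was sequenced by the authors, who deposited raw counts per gene, 1 file per sample. The submitters' processing notes name HTSeq and STAR, with the builds GRCm38 and mm10; for versions, annotation and strand setting the sources used here give nothing. Every file holds 55335 identifiers and 0 lines without a gene. Symbols, positions, exon length and GC content came from GENCODE M21 (GRCm38), in which 54587 identifiers were found by version and 55154 once the version was dropped.

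Genes were kept by edgeR's filterByExpr (13611), scaled by TMM and tested by quasi-likelihood in edgeR 4.0.16 under R 4.3.3, with robust estimation, over all 9 samples, with Benjamini-Hochberg adjustment over all genes and a call at an adjusted p under 0.05. The biological coefficient of variation was 3.68%. Changes are log2 fold changes with the fitted standard error (SE). CPM uses scaled library sizes, except for marker sums, which use library totals. A count of 3 is 0.347 to 0.369 CPM in these 6 libraries. Precision at low counts is limited by counting error, and reads carry no molecular identifiers. Chi-square per degree of freedom between replicates was 1.55 to 2.53, above sampling noise, so no pair was treated as a single library; this does not show that the samples are independent.

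The group, the gene lists and the rule for named genes were chosen with earlier results of these data known. The rule takes Med1; the 15 highest and 15 lowest called genes averaging 1 log2 CPM or more, predicted genes and pseudogenes left out; the 10 largest gains and losses of CPM; the 6 highest and 6 lowest genes not matched by shMed1 #2; and up to 2 members of each list in each direction. Further list members, and the promoters printed, were picked after their values were seen. Some genes and lists the rule names are not reported here. On simulated counts with 200 of 13611 genes changed the test recovered 44% at 1.2-fold, 78% at 1.5-fold and 88% at 2-fold, and 7.19% of its calls were false. In the data a far larger share was called, 28.2%, so these rates hold for the simulated setting only. Alternatives were RLE, upper quartile and library size scaling, no filter and a stricter filter (20 counts in every library of a group), DESeq2 1.42.0, edgeR with robust estimation off, the 6 samples alone, the replicate number as a block, and each of the 6 libraries left out. Figures were drawn with matplotlib 3.10.9.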

Additional observations from a re-analysis of the deposited data

Results flagged for a closer look

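Of the 55 leading genes, 35 were called in the test of the difference between the hairpins (edgeR's quasi-likelihood test, adjusted p under 0.05). Among the leading genes not called were Perp (-3.56 with shMed1 #4 and -4.22 with shMed1 #2, both against NTC) and Cxcl12 (-3.36 and -3.6). Xist (-3.2 and -3.25), Enpp2 (-2.5 and -2.79) and Parm1 (2.04 and 1.99) were not called either. For the called genes that follow, values are log2 differences, shMed1 #4 minus shMed1 #2. Above shMed1 #2 among the highest called genes were Peg3 (3.27), Acvrl1 (2.4), Kif5c (2.21), Cacng2 (2.16), Serpinf1 (1.82), Tesmin (1.49), Mcam (0.94) and Vdr (0.48), and below it Itga6 (-0.33), which was higher against NTC with both hairpins. Among the lowest called genes, Prl2c3 (-1.85) and Prl2c2 (-1.24) lay below shMed1 #2, and Gbp3 (1.44) and Oasl2 (1.32) above it, being lower against NTC with both. The genes not matched by shMed1 #2 were H2-Q6 (-2.16), H2-Q7 (-2.0), Dennd2a (-1.89), H2-Q5 (-1.79) and Tap1 (-1.27). Of the largest losses, Spp1 (1.55), Cp (0.95), Scd2 (0.94), Calr (0.43), Pdia6 (0.30), Pdia3 (0.28), Hspa5 (0.23) and Igfbp4 (0.17) fell less than with shMed1 #2 and Tpt1 (-0.16) fell more. Of the largest gains, mt-Nd6 (0.33), mt-Nd5 (0.17), mt-Cytb (0.16) and mt-Nd1 (0.15) lay above shMed1 #2, and Dstn (-0.28), Vim (-0.18) and Itgb1 (-0.15) below it. In Peg3 and Cacng2 the hairpins were called in opposite directions against NTC. Groups of 3 are too small for a check of single outlying samples.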

How the results depend on the processing

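Counts of called genes stayed within 1.5 times under every scaling, and the share of calls that were higher went from 49.8% to 45.05% with upper quartile scaling and 42.2% with library size alone. Leaving out 1 library at a time gave 1569 to 1895 higher and 1591 to 1847 lower genes, 49 to 68 and 220 to 267 at 2-fold, Med1 at -1.75 to -1.68 and 354 to 413 genes not matched by shMed1 #2. The stricter filter, which tests fewer scarce genes, left 29 higher and 154 lower genes past 2-fold, and DESeq2 gave 281 genes not matched, against 446. The difference between shares called higher and lower in bin 5, the most abundant of 5 bins, was 13.1 points, 7.97 with upper quartile scaling, 5.14 with library size alone, 8.18 with no filter and 9.55 to 13.6 with a library left out. In bin 1 it was -7.05, 0 with no filter (a bin of genes with almost no counts), -9.62 with the stricter filter, -4.92 in DESeq2, -8.78 with bins from shMed1 #2 (libraries that also carry a Med1 hairpin) and -7.27 to -5.86 with a library left out. The filters and bins change which genes make up a bin. The median log2 fold change of all genes was 0.00086 with TMM, -0.015 with upper quartile scaling and -0.024 with library size alone. For the scalings and DESeq2 the cause was not tested. Of 274 genes the rule names besides Med1, 228 kept their call under every alternative that tested them, 46 lost it under at least 1 and 0 changed sign, and all 55 leading genes kept it. Of 1830 list counts under alternatives, 1667 stayed within 1.5 times. The replicate number as a block gave 1879 higher and 1907 lower genes. Same-numbered NTC and shMed1 #4 libraries did not deviate together (r = -0.051, -0.040 and -0.053 across genes), and the samples share only a number. Each correlated best with another number: NTC 1 with shMed1 #4 replicate 2 (r = 0.114), NTC 2 with replicate 3 (0.12) and NTC 3 with replicate 1 (0.136). A batch that the numbers do not follow was not tested.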
